A study of Homo sapiens with 8 samples.

Results

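The genes described here encode 9 proteins that start, restrain or undo blood clotting at cell surfaces, and the measurements are the PML::RARA peaks at their loci. The genes were F3, THBD, TFPI and PROCR on the clotting side and PLAU, PLAUR, SERPINB2, ANXA2 and S100A10 on the fibrinolysis side. Members were the peaks that carry the symbol of such a gene, plus the peaks without a gene symbol whose centre lay within 50 kb of the centre of a symbol-bearing peak. This gave 12 of the 15412 peaks in the list, 4 with a symbol and 8 without. PLAU had 2 symbol-bearing peaks, PLAUR 1 and ANXA2 1. F3, THBD, SERPINB2, S100A10, TFPI and PROCR, which is 6 of the 9 genes, had none. Over all 19812 protein-coding genes of the annotation, 30.4% had a labelled peak, so 3 of 9 was near the background share.

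The peaks come from Cut&Run, in which an antibody directs a nuclease to a chromatin protein and the released DNA is sequenced. The cells were U937-PR9, a human monocytic line in which zinc switches on a PML::RARA transgene. Induced cells had 100 μM ZnSO4 for 5 h and uninduced cells had water, each assayed with an anti-PML::RARA or an anti-RARA antibody in 2 replicates, so that the study has 8 Cut&Run libraries. The list used here holds the peaks shared by both replicates of the induced, anti-PML::RARA group, and the other groups were not analysed here. All cells carried the transgene, no group had zinc without it, and effects of zinc and of the fusion protein cannot be told apart. Each peak has a single height and total, with no value for each replicate. Neither a spread between replicates nor a test could therefore be computed, and every comparison is a description. Expression was not measured in these files, so the cell type could not be checked against its markers, and depth is unknown.

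Clotting begins when tissue factor, the product of F3, meets its plasma ligand on a cell membrane, and it is restrained by TFPI and by the thrombomodulin and protein C system. Fibrinolysis begins when urokinase (PLAU), held on the cell by its receptor (PLAUR), converts plasminogen to plasmin, an enzyme that cuts fibrin. Annexin A2 and S100A10 form a complex that binds plasminogen, and SERPINB2 inhibits urokinase. Acute promyelocytic leukaemia, the disease that PML::RARA causes, is known for bleeding with disturbance of both arms.

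The reference sequence at 5 peaks is shown first, because these are the ones on which the description turns. All are from GRCh37 (hg19), written 5′ to 3′ on the strand of the gene, and cover up to 100 bases on each side of the apex, the position of largest signal, cut where a transcribed untranslated region begins. Capitals mark matches, on either strand, to AGGTCA (the retinoic acid receptor hexamer), GGAAGT (ETS), GGGCGG (SP/KLF), TGANTCA (AP-1), TGTGGT (RUNX), TTGCNNAA (C/EBP) or TGANNTCA (an AP-1 or CRE element with 1 more base). The last was added after the PLAU sequence had been seen. The highest PLAU peak is shown over chr10:75668743-75668934 and the peak at the canonical PLAU start over chr10:75670745-75670861, both on the plus strand. The peak in intron 1 of PLAUR is shown over chr19:44172579-44172779, the ANXA2 peak over chr15:60689250-60689450 and the peak in the coding exon of THBD over chr20:23029855-23030055, these on the minus strand.
PLAU upstream peak: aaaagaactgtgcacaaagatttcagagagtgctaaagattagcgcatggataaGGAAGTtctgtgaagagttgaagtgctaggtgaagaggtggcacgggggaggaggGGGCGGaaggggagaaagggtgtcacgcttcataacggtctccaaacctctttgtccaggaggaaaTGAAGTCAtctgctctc
PLAU start peak: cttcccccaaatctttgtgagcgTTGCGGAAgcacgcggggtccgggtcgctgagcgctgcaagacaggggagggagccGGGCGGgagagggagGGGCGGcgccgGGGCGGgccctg
PLAUR intron peak: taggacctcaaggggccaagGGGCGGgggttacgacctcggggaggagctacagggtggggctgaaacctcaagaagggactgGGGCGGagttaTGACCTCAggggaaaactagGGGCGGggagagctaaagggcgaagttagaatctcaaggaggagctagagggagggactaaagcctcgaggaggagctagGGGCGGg
ANXA2 peak: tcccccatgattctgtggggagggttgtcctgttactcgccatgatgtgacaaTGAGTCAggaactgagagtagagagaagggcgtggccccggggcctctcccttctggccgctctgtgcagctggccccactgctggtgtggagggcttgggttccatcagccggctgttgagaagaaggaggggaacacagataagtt
THBD exon peak: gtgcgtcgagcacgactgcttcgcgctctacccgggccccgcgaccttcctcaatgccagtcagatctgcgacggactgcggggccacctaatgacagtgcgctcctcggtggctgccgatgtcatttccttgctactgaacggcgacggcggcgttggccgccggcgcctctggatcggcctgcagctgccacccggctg

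Each peak has a height, the largest signal within it, and a width in bases. Over the list the median height was 25, with a range of 13 to 87, and the median width was 829.5 bp. The 12 peaks ran from 16 to 45 in height, with a median of 21, and from 329 to 1936 bp in width, with a median of 746 bp. The 4 labelled peaks had a median height of 24.5 and a median width of 1067.5 bp, against 26 and 1108 bp for all 7169 labelled peaks. The 8 unlabelled peaks had a median height of 19 and a median width of 648.5 bp, against 23 and 634 bp for all 8243 unlabelled peaks. As a group the peaks at these genes were therefore ordinary in size, and their differences from each other were larger than their difference from the list.

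**Figure D1:**
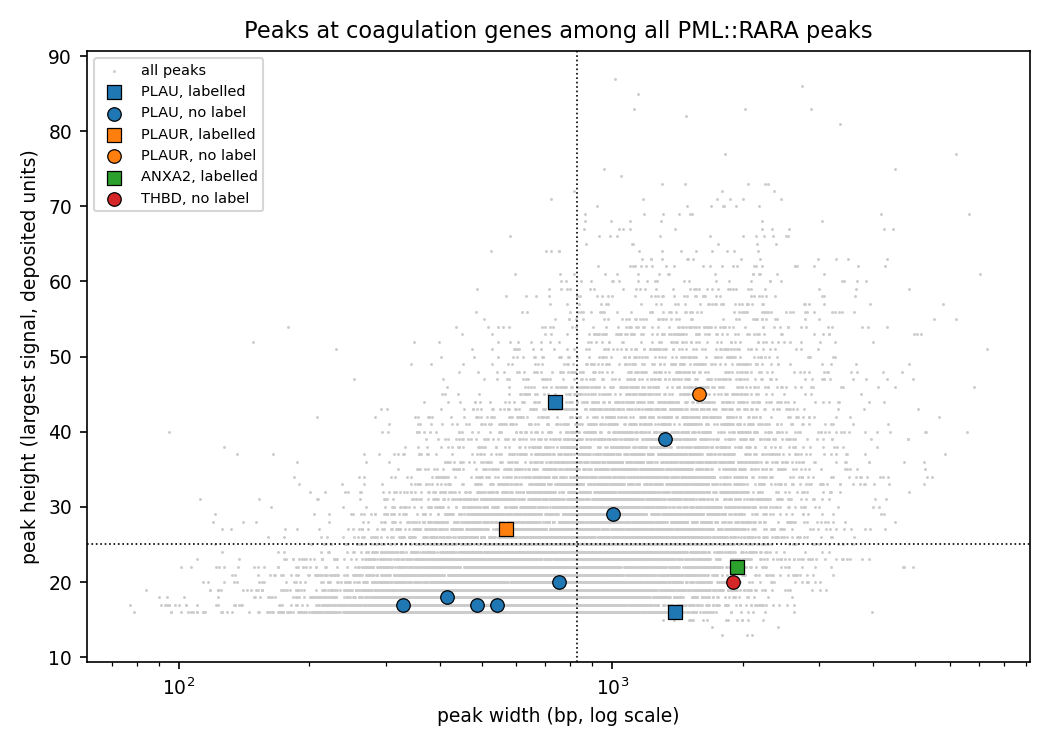
Height (largest signal, deposited units) against width (bp, log scale) of all 15412 peaks in grey, with the 12 peaks at PLAU, PLAUR and ANXA2 and the THBD exon peak in colour, squares for labelled and circles for unlabelled peaks. Dotted lines are the list medians, 25 and 829.5 bp. The PLAU upstream peak and the PLAUR intron peak stand at 44 and 45, while the PLAU start peak is at 16.

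PLAU, on chromosome 10 and the plus strand from 75668935 to 75677254, encodes urokinase. It had the most peaks of the 9 genes, 2 labelled and 7 unlabelled. The peak over its canonical start site was wide and low, and the high peak lay about 2 kb upstream. The start peak, at 75670253 to 75671650, was 1398 bp wide and 16 high, and its apex lay 45 bp upstream of the canonical start at 75670890. Its height tied for ranks 14278 to 15392, with 0.130% of all peaks lower, and its width took ranks 3093 to 3099, with 79.9% of peaks narrower. The upstream peak, at 75668662 to 75669398, was 737 bp wide and 44 high. It took height ranks 1234 to 1385, with 91.0% of peaks lower, and width ranks 8772 to 8782, with 43.0% narrower.

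The apex of the upstream peak lay 2047 bp from the canonical start but 92 bp upstream of the start of another PLAU transcript, at 75668935, and it carries the PLAU symbol. It was 2.75 times as high as the start peak. The total signal in the pair was almost equal, at 8251 and 8304, which is 11.2 and 5.94 per base, so the pair differed in how concentrated the signal was rather than in its amount. Genes with 2 or more labelled peaks whose peak nearest the canonical start was not the highest numbered 215 of 515, or 41.7%, so this arrangement was common in the list. The region upstream of PLAU is known from textbook work to hold an enhancer with AP-1 and ETS sites. In the sequence above, GGAAGT lay 43 bp upstream of the apex, GGGCGG 12 bp downstream and TGAAGTCA 79 bp downstream. Whether this peak is that enhancer, or these matches its sites, was not tested.

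**Figure D2:**
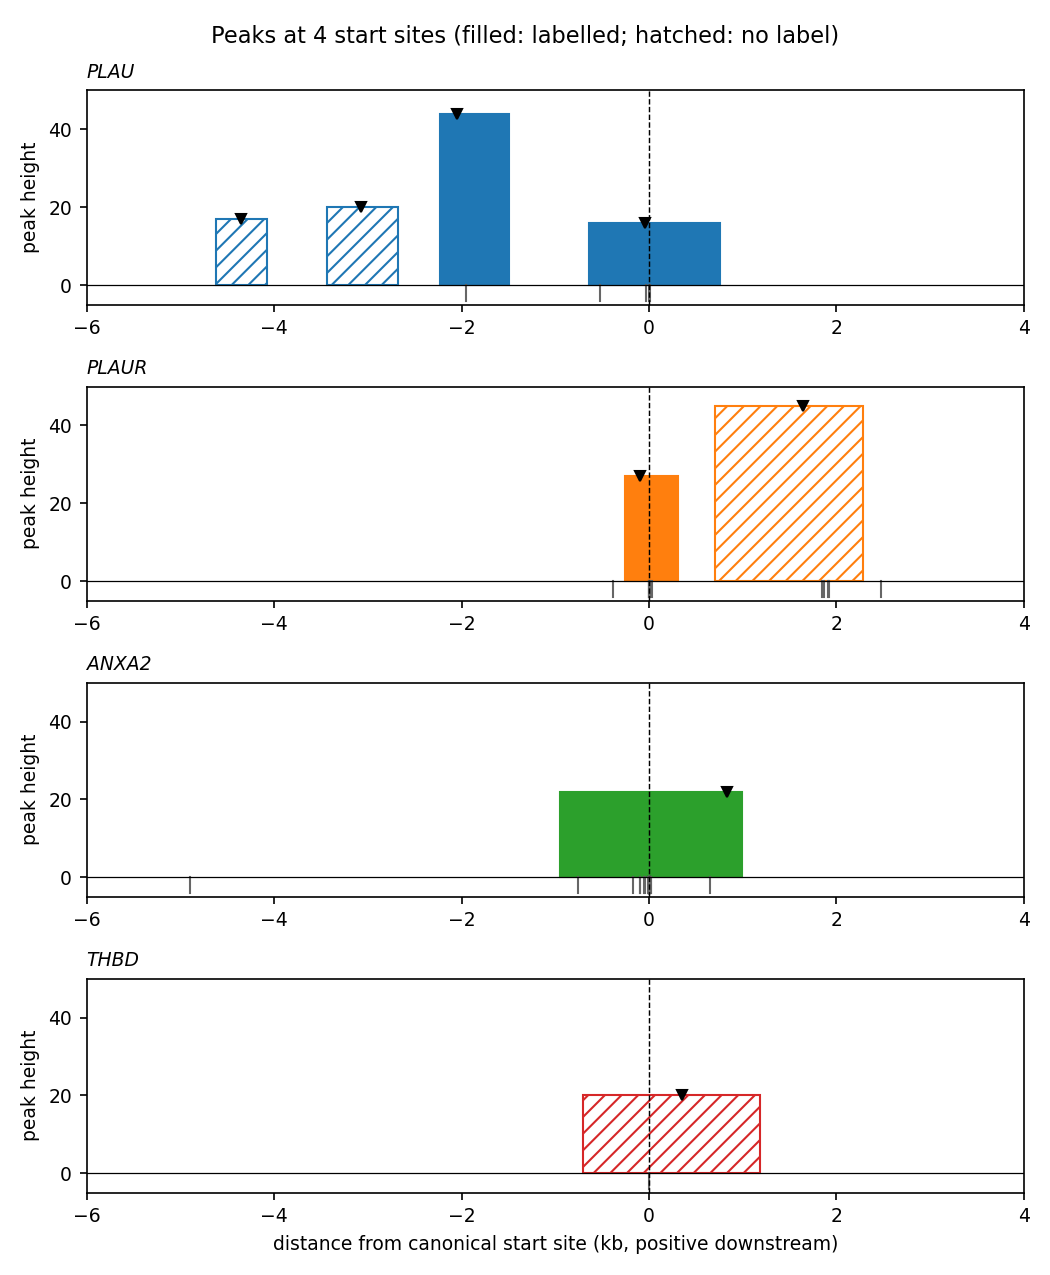
Peaks drawn to width and height within 6 kb upstream and 4 kb downstream of the canonical start (dashed line) of PLAU, PLAUR, ANXA2 and THBD. Filled boxes carry the gene's symbol, hatched boxes carry none, triangles mark the apex and ticks below 0 mark annotated start sites. At PLAU the box of height 44 is upstream of the start, at PLAUR the box of height 45 is downstream, and at THBD the start lies inside a hatched box of height 20.

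The 7 unlabelled peaks around PLAU lay on both sides of it. The pair nearest the gene had apexes 3074 and 4350 bp upstream of the canonical start, with heights 20 and 17 and widths 755 and 542 bp. Their heights took ranks 10691 to 11487 and 13294 to 14277, and their widths ranks 8580 to 8588 and 11399 to 11418. With the labelled pair they made a row of 4 separate peaks in the stretch from 75666272 to 75671650. A further peak 9205 bp downstream of the start, 415 bp wide and 18 high, lay past the end of PLAU within the noncoding gene C10orf55. It took height ranks 12401 to 13293 and width ranks 13186 to 13195.

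The other unlabelled peaks counted for PLAU were nearer to the start of another coding gene. Those with apexes 21880 and 31305 bp upstream were both 17 high, at height ranks 13294 to 14277, and were 487 and 329 bp wide, at width ranks 12219 to 12235 and 14252 to 14263. The peak 45150 bp upstream was much larger, at 39 high and 1325 bp wide, with height ranks 2104 to 2312 and width ranks 3482 to 3491. It lay inside CAMK2G, which encodes a calmodulin-dependent kinase subunit, 8573 bp downstream of the start of that gene. All 3 had the CAMK2G start as the nearest coding start. The peak 45707 bp downstream, 29 high and 1004 bp wide, took height ranks 5211 to 5665 and width ranks 5895 to 5909, and its nearest coding start was that of VCL, the gene of the adhesion protein vinculin. Only the outermost pair of the 7 exceeded the median height of 25. Of the 6546 symbols with a labelled peak, 62 (0.947%) had 7 or more unlabelled peaks within 50 kb, and 3495 (53.4%) had 0.

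**Figure D3:**
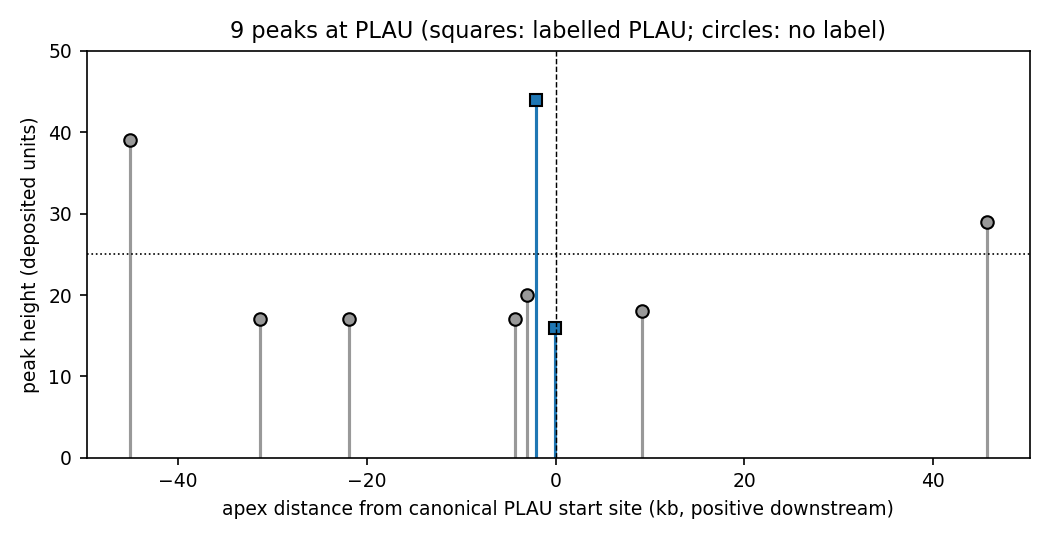
Height of the 9 peaks counted for PLAU against the distance of the apex from the canonical start site (kb, positive downstream), squares labelled PLAU and circles without a symbol. The dotted line is the list median height of 25. It is exceeded by the upstream PLAU peak (44) and by the outermost peaks (39 and 29), which are nearest to the starts of CAMK2G and VCL.

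PLAUR, on chromosome 19 and the minus strand from 44150247 to 44174699, encodes the urokinase receptor. Its labelled peak was of middle height and the larger signal lay unlabelled in its intron 1. The labelled peak, at 44174012 to 44174580, was 569 bp wide and 27 high, with the apex 90 bp upstream of the canonical start. It took height ranks 6155 to 6676 and width ranks 11029 to 11047, with 56.7% of peaks lower and 28.3% narrower. The intron peak, at 44172033 to 44173617, was 1585 bp wide and 45 high, with the apex 1642 bp downstream of the canonical start. It took height ranks 1115 to 1233 and width ranks 2166 to 2171, with 92.0% of peaks lower and 85.9% narrower.

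The PLAUR intron peak had a total signal of 28861, the highest of the 12 peaks, at rank 563 to 564 of the list. This was 4.00 times that of the labelled PLAUR peak (7220). The apexes were 1732 bp apart, and the intron apex lay 207 bp upstream of the start of a shorter PLAUR transcript at 44172472. A single labelled peak with a higher unlabelled peak within 5 kb was found at 160 of 5504 protein-coding genes, or 2.91%. The sequence around the intron apex repeats itself. In the 301 bp centred on it, 47.7% of bases were identical to the base 62 bp further on, the best of all shifts from 10 to 100 bp, against a median of 34.0% over all peaks, and 158 of 15412 peaks had a higher value. The part of this repeat in the height of the peak was not tested.

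ANXA2, on chromosome 15 and the minus strand from 60639333 to 60695082, encodes annexin A2, which binds membranes and plasminogen. It had 1 wide peak of modest height. The peak, at 60689196 to 60691131, was 1936 bp wide, at width rank 1188 with 92.3% of peaks narrower, and 22 high, at ranks 9138 to 9878 with 35.9% lower. It covered the canonical start at 60690185, but its apex sat near one edge, 154 bp from the downstream end, in intron 1. The apex was 835 bp downstream of the canonical start and 187 bp downstream of another annotated start. The total signal was 15308, and by that measure 81.6% of all peaks were lower, so the peak ranked higher by area than by height. No unlabelled peak lay within 50 kb, as at 53.4% of the symbols with a labelled peak, and the next apex upstream was 82.1 kb away.

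S100A10 and SERPINB2, the other genes of the fibrinolysis side, had no peak near their starts. S100A10, on chromosome 1, encodes the partner of annexin A2. Its nearest apex was 43139 bp upstream, in the peak labelled S100A11, which was 17 high and 1166 bp wide, and S100A10 had the only coding start between the apexes that flank it, 127.4 kb apart. The complex thus had a labelled peak at the annexin gene and none at the S100 gene. SERPINB2, on chromosome 18, encodes the urokinase inhibitor PAI-2. Its nearest apex was 82355 bp downstream, in the peak of 17 in height and 989 bp in width labelled SERPINB8, a neighbouring serpin. The interval between the flanking apexes was 379.5 kb and held the starts of 8 coding genes, among them SERPINB2, SERPINB3, SERPINB4, SERPINB7, SERPINB10 and SERPINB11.

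On the clotting side, THBD had a peak over its start that carries no symbol. THBD, on chromosome 20 and the minus strand from 23026270 to 23030309, encodes thrombomodulin, the thrombin-binding receptor that turns thrombin to activation of protein C. The peak, at 23029121 to 23031017, was 1897 bp wide and 20 high. It took width ranks 1268 to 1271, with 91.8% of peaks narrower, and height ranks 10691 to 11487, with 25.5% lower, but by its total signal of 13596, 77.9% of peaks were lower. Its apex lay 354 bp downstream of the start, in coding exon 1 of this gene of a single exon, and none of the capitalised motifs occurred in the 301 bp around it, of which 71.1% was G or C. An unlabelled peak covered the canonical start of 302 of the 13793 protein-coding genes without a label, or 2.19%, and the peaks that did so had a median width of 1260 bp and a median height of 27. The THBD peak was not among the 12, because it lies near no peak labelled with one of the 9 symbols. Where a gene was instead counted when an apex lay within 1 kb of any of its starts, THBD joined PLAU, PLAUR and ANXA2, making 4 of 9 against 39.8% of all protein-coding genes.

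Other peaks within 50 kb of the THBD start were nearer to other genes. Unlabelled peaks 16754 and 21732 bp downstream of the start, 25 and 26 high and 887 and 591 bp wide, had the start of the somatostatin receptor gene SSTR4 as the nearest. The peak labelled CD93, the gene of a myeloid and endothelial surface lectin, had its apex 36663 bp upstream of the THBD start. It was 44 high and 2937 bp wide, with 91.0% of peaks lower and 98.5% narrower, and so was larger than the THBD peak by both measures.

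F3, TFPI and PROCR had no peak near their starts. The nearest apex to F3, the tissue factor gene on chromosome 1, was 60732 bp upstream of its start, in an unlabelled peak of height 30 and width 495 bp, and F3 was the nearest coding start to it. The authors name F3 among the upregulated genes bound by PML::RARA in this line. Contacts between promoters and distant peaks were not analysed here. For PROCR, the endothelial protein C receptor gene on chromosome 20, the nearest apex was 24772 bp upstream, in the peak of height 19 and width 534 bp labelled EDEM2. For TFPI, the tissue factor pathway inhibitor gene on chromosome 2, it was 2106923 bp away, in a peak of height 28 labelled ASNSD1. The interval between the apexes that flank TFPI was 6.95 Mb, the 31st longest of 15389 intervals between neighbouring apexes, and it held the starts of 18 coding genes. The absence of a peak near TFPI was therefore shared with its neighbours, among them CALCRL, ITGAV and COL3A1.

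Ordered by the distance from the canonical start to the nearest apex, the genes ran PLAU, PLAUR, THBD, ANXA2, PROCR, S100A10, F3, SERPINB2 and TFPI. The first 4 lay within 1 kb, and the others at 24.8 kb or more. The median over all 19812 protein-coding genes was 19.1 kb, with quartiles at 212 and 119930 bp. A nearer apex was found for 6.48% of genes in the case of PLAU, 12.5% for PLAUR, 30.0% for THBD and 34.8% for ANXA2. The shares were 52.6% for PROCR, 59.5% for S100A10, 64.5% for F3, 69.1% for SERPINB2 and 98.7% for TFPI. The 9 genes were thus spread over most of the range of all genes.

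**Figure D4:**
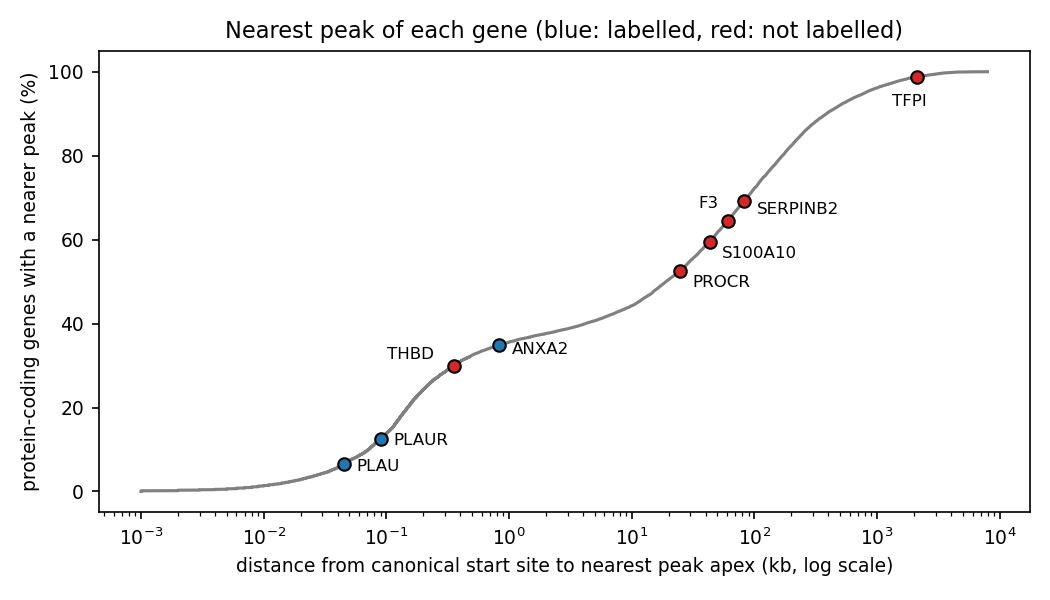
Share of the 19812 protein-coding genes with a nearer peak (%) against the distance from the canonical start to the nearest apex (kb, log scale), with the 9 genes marked in blue where they have a labelled peak and in red where they have none. PLAU, PLAUR, THBD and ANXA2 lie within 1 kb, PROCR, S100A10, F3 and SERPINB2 between 24.8 and 82.4 kb, and TFPI at 2106.9 kb.

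The short motifs were searched within 150 bp on each side of each apex, on both strands. The AP-1 motif was present in 4 of the 12 peaks (15.7% of all peaks in the list) and the RUNX motif in 5 (24.4%). The ETS motif was present in 5 (37.3%), the SP/KLF motif in 5 (45.0%), the C/EBP motif in 3 (13.7%) and the retinoic acid receptor hexamer in 2 (18.6%). The shares differ between labelled and unlabelled peaks, at 6.14% and 23.9% for the AP-1 motif and at 71.0% and 22.3% for the SP/KLF motif. They were 12.1% and 35.2% for the RUNX motif and 7.88% and 18.7% for the C/EBP motif. All 5 of the 12 peaks with the RUNX motif were unlabelled. The AP-1 motif was found in the labelled peaks of PLAUR and ANXA2, 93 and 44 bp from the apex, and in the unlabelled PLAU peaks with apexes 3074 and 21880 bp upstream of the start, 37 and 6 bp from the apex. The longer AP-1 or CRE element, added later, was present in 3 of the 12 peaks and in 10.4% of the list.

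The retinoic acid receptor hexamer AGGTCA occurred in the PLAUR intron peak, 4 and 141 bp from the apex, and in the unlabelled peak between PLAU and VCL, 131 bp from the apex. In the PLAUR peak the nearer copy reads TGACCT on the gene strand and overlaps the TGACCTCA match to TGANNTCA. That peak also held 6 copies of the SP/KLF motif, of which 4 stand in the sequence above. With the spelling GGGTCA allowed as well, together with the related spellings AGTTCA or lastly also GGTTCA, the hexamer was present in 7 of the 12 peaks and in 46.5% of the list. The PLAU start peak held 3 copies of the SP/KLF motif within 18 bp of the apex and a C/EBP motif 73 bp upstream of it. None of the 6 motifs, leaving out the added element and spellings, occurred around 1 of the 12 apexes, the PLAU peak 4350 bp upstream, against 10.2% of all peaks. These counts of letters are descriptions of the windows and do not show which protein was bound.

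Other genes of clotting and fibrinolysis, with the families of annexin A2 and S100A10, were taken as 7 lists, 80 genes in all. A labelled peak was present at 24 of them, or 30.0% (Wilson 95% interval 21.1 to 40.8%, counting error only), against the 30.4% of all protein-coding genes. Of the 24, 10 were S100 genes and 3 were annexin genes, so the share over all 80 rests in large part on these families. The share differed between the lists. Of the 17 clotting factor genes 1 had a labelled peak, which is 5.88% (interval 1.05 to 27.0%). This was F8, the gene of the factor lacking in haemophilia A, with a peak 29 high. The apex of the F8 peak lay 4365 bp upstream of the canonical start. None of the 10 anticoagulant and serpin genes (interval up to 27.8%) and none of the 4 thrombin receptor genes (interval up to 49.0%) had one. The intervals of all lists treat genes as independent, which genes whose starts lie near each other are not. They also treat each list as a random draw, though the lists were chosen with earlier results known. The intervals therefore do not test a list against the share of all genes.

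Of the 13 other genes listed under the plasminogen system 4 had a labelled peak, or 30.8% (interval 12.7 to 57.6%). These 4 include SERPINB8, a serpin whose part in fibrinolysis was not examined here. The highest were at ENO1, an enolase that also serves as a plasminogen receptor (43), PLGRKT, a plasminogen receptor (32), and SERPINB8 (17). The apex of this ENO1 peak lay 4894 bp downstream of the canonical start, and another apex lay 71 bp from that start. Of the 9 genes of membrane and cofactor enzymes, which act on vitamin K, membrane lipids or disulfides, 6 had one, or 66.7% (interval 35.4 to 87.9%). The highest were at P4HB, protein disulfide isomerase (56 high and 3262 bp wide), VKORC1, the target of warfarin (40), and the thioredoxin gene TXN (30). These enzymes also serve processes other than clotting.

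The families of annexin A2 and S100A10 made up the remaining lists of the 80 genes. Of 10 other annexin genes 3 had a labelled peak, or 30.0% (interval 10.8 to 60.3%). They were ANXA6 (28 high and 3140 bp wide), ANXA11 (19) and ANXA7 (16). The ANXA6 apex lay 2120 bp downstream of the canonical start. Of 17 other S100 genes 10 had a labelled peak, or 58.8% (interval 36.0 to 78.4%). The highest were at S100A4 (53), S100A2 (40) and S100A13 (33), the last with its apex 6540 bp upstream of the canonical start. The S100 share depended on the label. By an apex within 1 kb of a start 7 of the 17 S100 genes counted, or 41.2%, against 39.8% of all protein-coding genes. Of these 10, 9 lie on chromosome 1, as S100A10 does, and genes whose starts lie near each other are not independent. Counted by an apex within 1 kb of a start, 25 of the 80 genes had a peak, or 31.2%, against the same 39.8%. By list these were 2 of the 17 clotting factor genes, 5 of the 13 plasminogen system genes and 7 of the 9 membrane and cofactor enzyme genes. They were 4 of the 10 other annexin genes and 0 of the anticoagulant and thrombin receptor genes.

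**Figure D5:**
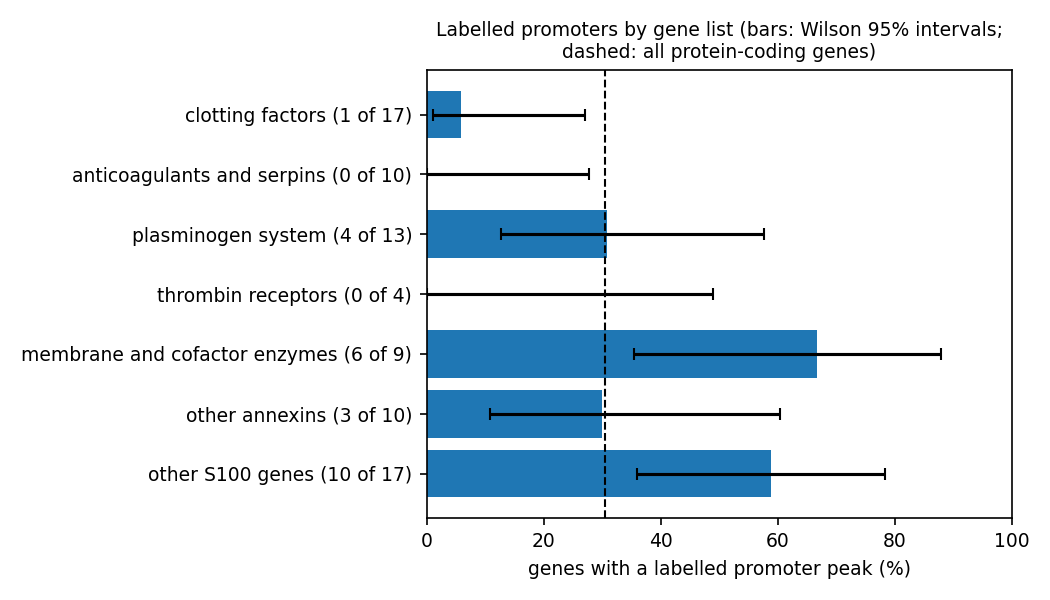
Share of the genes of each list with a labelled promoter peak (%), with Wilson 95% intervals (counting error only, not a test) as lines and the 30.4% of all protein-coding genes as the dashed line. The bars of the membrane and cofactor enzymes (6 of 9) and of the other S100 genes (10 of 17) lie well right of the dashed line, the S100 bar only by label. That of the clotting factors (1 of 17) lies left of it, and that of the plasminogen system (30.8%) lies almost on it. By an apex within 1 kb of a start the S100 genes were 7 of 17, the membrane and cofactor enzymes 7 of 9 and the clotting factors 2 of 17, against 39.8% of all genes.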

How the data were processed

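Cut&Run was done on nuclei of U937-PR9 cells, in 2 replicates of each group. The authors trimmed the reads, aligned them to hg19, removed duplicates and blacklisted reads, called peaks with SEACR, with the paired control as background, and kept peaks with an IDR below 0.05 (Trimmomatic, Bowtie2 and SAMtools are named). The authors deposited for each peak a total signal and, as the SEACR score, the largest signal, both whole numbers whose column names do not match their content. The content was taken from the values, since the total was below height times width in all 15412 peaks. Whether the signal is of 1 replicate or pooled, and its scaling, are not given in the sources used here. The authors gave a gene symbol where the apex overlapped a promoter. For 34 peaks the apex interval had no end, and its start was used.

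Ranks run from the largest value, with ties as a range. Start sites, the canonical transcript, exons and sequences came from GENCODE release 44 on GRCh37, and the list's ends lay inside the lengths of all 23 chromosomes. A start site is that of any transcript of a gene. Scripts used Python 3.11.15, pandas 2.3.3 and numpy 2.4.6. Only the motif search, the ranks and the percentages of lower values were tested on simulated data. Members and lists were chosen with earlier results of these data known. Genes were named where they are one of the 9, where their symbol or start marks a neighbouring peak, or where they had one of the 3 highest labelled peaks of a list.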

Additional observations from a re-analysis of the deposited data

How the results depend on the processing

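The 3 labelled genes became 4 with an apex within 1 kb of a start (39.8% of all protein-coding genes) or with any peak over the gene or 1 kb upstream (46.3% of all), as THBD joined. They became 2 when peaks under the median height (ANXA2 left, 17.7% of all) or width (PLAUR left, 22.7% of all) were dropped. The 24 labelled genes of the lists became 15, or 18.8%, without peaks under the median height, and 17, or 21.2%, without those under the median width, so these counts moved with the shares over all genes. The 8 unlabelled peaks near a labelled one became 5 within 25 kb, 5 with neighbours under 1 kb apart merged and 4 when the nearest coding start had to be that of the same gene. Within 100 kb there were 12. Just inside the 50 kb, the farthest peak lay 45742 bp from a labelled PLAU peak (height 29), and just outside lay one at 59.9 kb (height 28). The median percentile of the 12 peaks by height, 30.7, became 50.3 by total signal, 32.6 by mean signal per base and 29.9 among peaks of the same label. That by width, 43.6, became 50.4 among peaks of the same label. By total signal the PLAU upstream peak fell from 91.0 to 55.5 and the PLAU start peak rose from 0.130 to 55.8. The 24 pairs of a peak and a motif became 25 with 200 bp, 36 with the whole peak, 29 with 4 spellings of the hexamer and 27 with TGANNTCA, the last 2 settings chosen after seeing the data. No paired analysis was possible because replicates have no values of their own in the deposited peaks, and no replicate could be left out for the same reason. Depth is unknown and limits which low peaks were called.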

Other observations

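Upstream of THBD and past CD93, 10 unlabelled peaks had their apexes 69.9 to 112.1 kb from the THBD start, a stretch chosen after the peaks had been seen. Their heights ran from 18 to 57 with a median of 36.5, and 9 of the 10 were at or above the list median of 25. The highest was 57 high and 1992 bp wide, with 98.2% of all peaks lower, and the widest was 40 high and 2681 bp wide. The nearest coding start to all 10 was that of CD93. From an unlabelled peak of the list, a window of 120 kb held a median of 2 unlabelled peaks.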
